A study of Mus musculus with 6 samples.

Results

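Cytarabine is a nucleoside drug that leukemia cells must import, phosphorylate and protect from deamination before it can enter DNA. The 10 genes of this route examined here were given by name and found in all 6 libraries, out of 23284 genes in each file. All 10 passed the filter of a mean of at least 1 FPKM that 11703 genes passed, Cda only through its level with cytarabine. They were Slc29a1 and Slc29a2 for uptake, Dck and Cmpk1 for activation, Cda and Dctd for deamination, Nt5c2 and Samhd1 for removal of phosphate, and Rrm1 and Rrm2 for the supply of the competing deoxynucleotide.

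The cells were C1498, a murine acute myeloid leukemia (AML) line that a retrovirus had marked with GFP and of which 1 clone was used. They were injected into the vein of C57BL/6 J mice, which the methods describe as females of 8 to 10 weeks unless stated otherwise. Bone marrow cells positive for GFP and for CD49b were sorted on day 21 from 3 cytarabine-treated mice and 3 controls, and each mouse gave 1 library. The libraries are called cytarabine 1 to 3 and control 1 to 3 here. The schedule given for imaging was 20 μg of cytarabine on days 19 and 20, and none is given for the sequenced mice. The control mice are called untreated in one place and PBS-treated in another. All mice carried the same leukemia and no library came from cultured C1498 cells, so the levels before injection are not known.

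As background, cytarabine is a cytidine analog with an arabinose sugar. Equilibrative transporters carry it across the membrane, deoxycytidine kinase adds the first phosphate, and further kinases make the triphosphate, which DNA polymerases build into the growing strand. Deaminases turn the drug or its monophosphate into uracil compounds with little activity, nucleotidases take the first phosphate off again, and SAMHD1 splits the triphosphate. Ribonucleotide reductase makes the deoxynucleotides that feed dCTP, the natural competitor of the drug triphosphate and an inhibitor of deoxycytidine kinase.

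All values are FPKM, fragment counts divided by transcript length and by the mapped total, so levels are per length and may be set beside each other across genes. The files used hold no counts, and steps between low FPKM values corresponded to roughly 11460000 to 18800000 reads per library. Differences were tested with limma on log2(FPKM + 1), cytarabine minus control, over the 11703 genes, with Benjamini-Hochberg adjustment. Mice are the replicates, and a change smaller than their spread is reported as such. In these sorted bulk samples, fewer cells of a type and less RNA per cell cannot be told apart.

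Transcripts that mark other tissues were found in all libraries. The first principal component, with 63.1% of the variance, separated cytarabine 2, cytarabine 3 and control 1 from the remaining libraries. The summed level of 15 markers of colon epithelium followed it, at 2411 to 5475 FPKM in the former and 26.6 to 381 FPKM in the latter, with Zg16 the most abundant. It ranged from 381 to 5475 FPKM over the cytarabine libraries and from 26.6 to 2411 FPKM over the controls, and none of these markers was at 0 in every library. The 10 heart markers, led by Nppa, summed to 7.998 to 795 FPKM with cytarabine and to 60.9 to 3039 FPKM in controls, and 10 neutrophil markers, led by S100a8, to 194 to 1586 FPKM against 1454 to 2064 FPKM. The 8 erythroid markers found summed to 193 to 341 FPKM against 44.3 to 99.5 FPKM, with Car2, which colon also expresses, as the highest on average. The 8 macrophage markers, led by C1qa, summed to 16.3 to 60.4 FPKM against 13.4 to 155 FPKM, the 8 smooth muscle markers, led by Acta2, to 140 to 1395 FPKM against 28.6 to 1161 FPKM, and the 5 B cell markers, led by Cd79a, to 6.20 to 14.3 FPKM against 5.53 to 6.62 FPKM. Of the 12 genes listed for myeloid leukemia, 4 were above 1 FPKM in every library. Ptprc, the pan-leukocyte CD45, was at 284 to 386 FPKM, Mpo at 2.33 to 71.05 FPKM and Sfpi1 (Spi1) at 2.49 to 7.72 FPKM. The progenitor receptor Kit and the myeloid receptor Flt3 stayed at or under 1.59 and 0.244 FPKM. Cd34, Csf1r and Itgam reached 7.72, 5.81 and 4.76 FPKM, and Csf3r, Cebpa and Cd33 reached 3.83, 2.18 and 2.115 FPKM. Itga2, which encodes the sorted antigen CD49b, was at 7.79 to 8.12 FPKM with cytarabine and at 10.6 to 13.3 FPKM in controls. Of 15 T and NK cell markers, 7 were above 1 FPKM in every library, led by Cd3g at 449 to 652 FPKM, above Ptprc, and the list's sum was 856 to 1124 FPKM against 956 to 1130 FPKM. Beside each member, the difference is also given within each side of this division. One side holds cytarabine 1 and control 2 and 3, and the other holds cytarabine 2 and 3 and control 1.

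Rrm2, Dck and Samhd1 exceeded all controls in each of the cytarabine libraries, and Slc29a1 and Dctd were lower. For the other members, Slc29a2, Cmpk1, Cda, Nt5c2 and Rrm1, the groups overlapped. These 5 of 10 genes without overlap, 3 higher and 2 lower, stand against 23.8% of all tested genes, 10.9% higher and 12.9% lower. The same 5 genes had an unadjusted p under 0.05 from limma, where 17.4% of all tested genes did, 7.60% higher and 9.81% lower. No member had an adjusted p under 0.05, nor did any other tested gene (0%, with 2038 genes at an unadjusted p under 0.05 from limma), so none of the changes below passed the test over all genes. The median log2 fold change of the members was 0.17, and that of all tested genes was -0.0015. Leaving out 1 library at a time, between 3 and 5 members had an unadjusted p under 0.05 from limma. Of the 11703 tested genes, 1179 to 4075 did in these fits. The 5 members without cytarabine 1 were Dck, Cmpk1, Cda, Dctd and Rrm2. The 4 without control 1 were Slc29a1, Dck, Cda and Rrm2. Cda passed the filter only through its level with cytarabine, so its place in these counts carries no weight. The count fell to 3 in 4 of these fits, without cytarabine 2, cytarabine 3, control 2 or control 3, and Rrm2 and Dck were counted in all 6 fits. Adding the scores for colon and heart RNA to the fit left 1 member at an unadjusted p under 0.05 from limma, Rrm2. Of the 11703 tested genes, 565 were under it there. The log2 fold change was then 0.35 for Dck and 0.71 for Rrm2, against 0.33 and 0.49 without the scores. It went from -0.53 to -0.47 for Dctd, from 0.24 to 0.15 for Samhd1 and from -0.24 to 0.0076 for Slc29a1. The scores also take degrees of freedom from the fit, and whether such RNA accounts for the lower count was not tested.

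**Figure D1:**
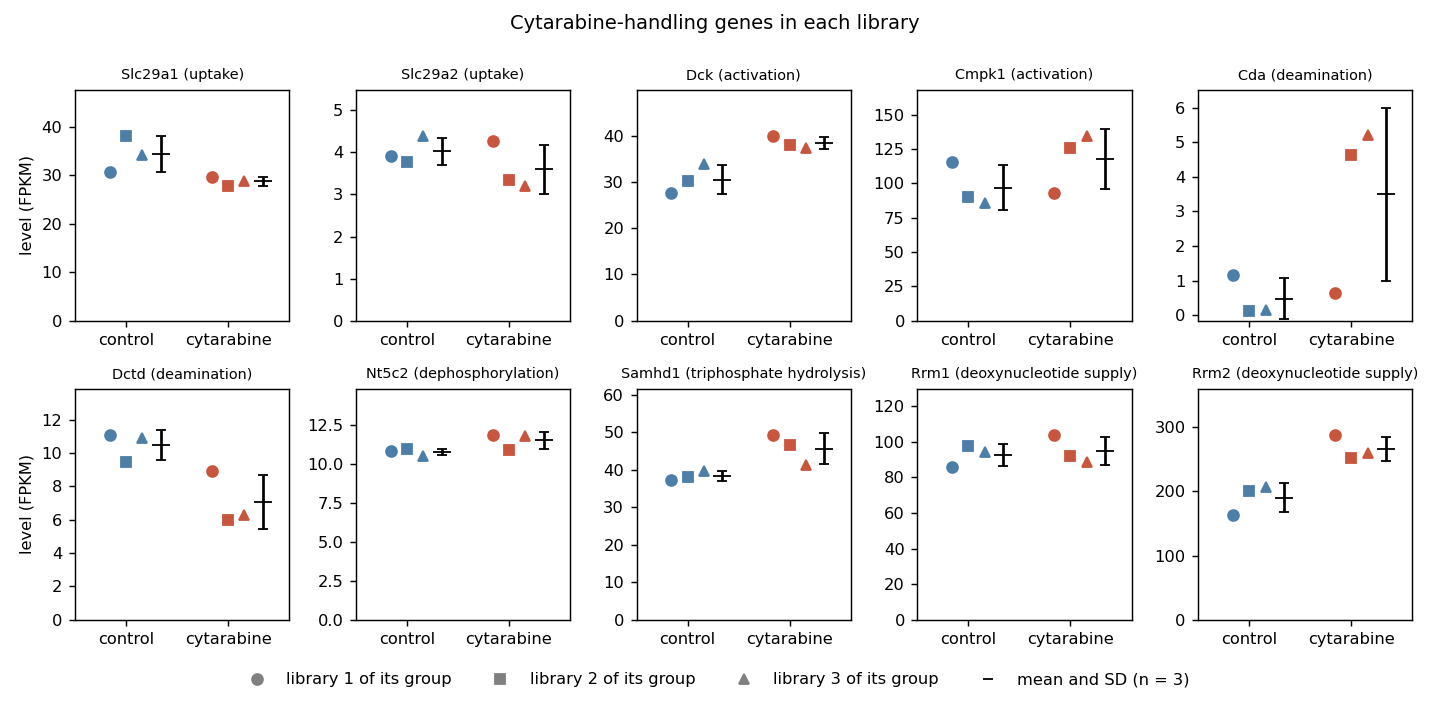
FPKM of each of the 10 genes in the 3 control libraries (blue) and the 3 cytarabine libraries (red), with the marker shape giving the library number within its group and the black bar the mean and SD of 3 mice. Each vertical axis has its own scale. Rrm2, Dck and Samhd1 lie higher in all 3 cytarabine libraries, Slc29a1 and Dctd lie lower, and Cda is at 0.134 to 5.21 FPKM.

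The levels of the members spanned 2 orders of magnitude. Rrm2 had the highest mean over the 6 libraries, at 228 FPKM, above 96.8% of the tested genes. Cmpk1 (107 FPKM) and Rrm1 (93.5 FPKM) followed and could not be ordered, since each was above the other in 3 libraries. Samhd1 (42.0 FPKM) was above Dck (34.5 FPKM) in all 6 libraries, although their ranges overlapped. Dck and Slc29a1 (31.5 FPKM) could not be ordered either, with Dck the higher in 3 of 6 libraries. Nt5c2 (11.2 FPKM) and Dctd (8.76 FPKM) overlapped, with Nt5c2 the higher in 4 libraries. Slc29a2 (3.81 FPKM) and Cda (1.99 FPKM) were the lowest. Nt5c2 and Rrm1 varied least, with a coefficient of variation of 4.90% and 6.94% over the 6 libraries, and Cda varied most, at 116%.

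Of the 45 pairs of members, Dck and Rrm2 had the most similar pattern over the 6 libraries, with a Pearson correlation of log2(FPKM + 1) of 0.97. Rrm2 and Rrm1, the subunits of one enzyme, had 0.53. These are descriptions over 6 libraries of 2 groups. The 250 bases before the start of these 3 genes are shown for this reason, from the RefSeq promoter table of GRCm38.p6, which had an entry for all 10 members and a single start for 7. Capitals mark GGGCGG, the GC box, or CCAAT, the CCAAT box, on either strand. The windows are chr5:88764763-88765012 for Dck, chr12:24708004-24708253 for Rrm2 and chr7:102441445-102441694 for Rrm1, all on the plus strand. The RefSeq starts of Dck and Rrm2 lie inside the GENCODE genes, just past their first bases, so both windows end in annotated gene sequence.
Dck: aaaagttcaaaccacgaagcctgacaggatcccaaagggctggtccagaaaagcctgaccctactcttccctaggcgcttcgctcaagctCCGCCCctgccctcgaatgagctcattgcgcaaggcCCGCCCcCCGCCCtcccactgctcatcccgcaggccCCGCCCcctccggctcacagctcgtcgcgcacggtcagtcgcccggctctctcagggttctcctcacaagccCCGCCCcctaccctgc
Rrm2: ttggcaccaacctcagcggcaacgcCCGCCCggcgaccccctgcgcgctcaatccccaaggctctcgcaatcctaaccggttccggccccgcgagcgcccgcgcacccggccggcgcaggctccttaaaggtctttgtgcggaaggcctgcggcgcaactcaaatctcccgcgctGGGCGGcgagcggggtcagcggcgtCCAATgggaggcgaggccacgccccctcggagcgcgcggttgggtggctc
Rrm1: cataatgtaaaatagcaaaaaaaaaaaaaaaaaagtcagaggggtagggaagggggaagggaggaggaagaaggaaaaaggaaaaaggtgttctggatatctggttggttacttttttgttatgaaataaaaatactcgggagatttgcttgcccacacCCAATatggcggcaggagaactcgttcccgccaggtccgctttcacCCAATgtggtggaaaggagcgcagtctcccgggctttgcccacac
The GC box occurred 5 times for Dck, with first bases 160, 124, 117, 88 and 16 bases before the start. It occurred for Rrm2 at 225 and 75 bases, and these letters were not in the Rrm1 window. The CCAAT box stood 50 bases before the start of Rrm2 and 91 and 45 bases before that of Rrm1, and was not in the Dck window. Among all 32851 promoter windows of this length, 32.7% held a GC box and 33.8% a CCAAT box. The letters TTTCCCGC and TTTGGCGC, forms of the site that E2F cell cycle factors bind, occurred in 0.895% and 0.417% of all windows and in none of the 3. Only these exact letters were searched, so other forms of the site may be present. The GC content was 66.0% for Dck, 72.4% for Rrm2 and 46.0% for Rrm1.

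Slc29a1 encodes ENT1, the equilibrative nucleoside transporter that carries most cytarabine into cells. It lies on chromosome 17 from 45585200 to 45599606 of GRCm38, minus strand, in GENCODE M21. Its level was 29.6, 27.9 and 28.7 FPKM in the cytarabine libraries, in the order of their numbers, against 30.6, 38.1 and 34.2 FPKM in the controls. All 3 cytarabine libraries were below all controls, but cytarabine 1 and control 1 were close to each other. On the log2 scale the change was -0.24 (standard error 0.091, unadjusted p = 0.038, adjusted p = 0.263 from limma), and the mean level was 16.3% below that of controls. The difference was -0.28 with less colon RNA and -0.11 with more. Of the 6 fits that left out 1 library, only that without control 1 kept an unadjusted p under 0.05 from limma. Its log2 fold change was 0.0076 once colon and heart scores entered as covariates. Annotated exons of an antisense gene, Gm17080, overlap those of Slc29a1. The kit kept strand, but whether the authors counted by strand is not stated in the sources used here.

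Slc29a2 encodes ENT2, a related transporter with lower affinity for many nucleosides, on chromosome 19 from 5023860 to 5031972. Cytarabine libraries had 4.26, 3.35 and 3.19 FPKM, whereas controls had 3.92, 3.76 and 4.39 FPKM. Cytarabine 1 lay among the controls and the other cytarabine libraries lay below them. This was a log2 fold change of -0.13 with a 95% interval from -0.47 to 0.21, which was within the spread between mice. The difference was 0.055 with less colon RNA and -0.21 with more, so its sign differed between the sides. It ranged from -0.23 without cytarabine 1 to -0.069 without cytarabine 3, with -0.081 without control 3, and was -0.38 with quantile normalization. In every library Slc29a1 was the more abundant of the transporters.

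Dck encodes deoxycytidine kinase, which adds the first phosphate and sets the rate of activation of cytarabine. It lies on chromosome 5 from 88764996 to 88783281. The treated mice gave 40.0, 38.1 and 37.5 FPKM, the control mice 27.6, 30.2 and 33.9 FPKM. The cytarabine libraries lay close together and above all controls. The mean was 38.5 ± 1.30 FPKM (SD, n = 3 mice) against 30.6 ± 3.196 FPKM, 1.26 times the control level. The log2 fold change was 0.33 (standard error 0.089, unadjusted p = 0.010, adjusted p = 0.183 from limma). It was 0.31 with less colon RNA and 0.44 with more. With 1 library left out it was between 0.26 and 0.40.

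Cmpk1 encodes the UMP/CMP kinase, which adds the second phosphate, on chromosome 4 from 114959336 to 114987241. Values of 93.1, 126 and 135 FPKM were found after cytarabine, compared with 116, 89.8 and 85.5 FPKM without it. The 3 libraries with more colon RNA were the 3 highest, irrespective of group. On the log2 scale the change was 0.27 with a 95% interval from -0.17 to 0.72, and within the sides the difference was 0.086 with less colon RNA and 0.17 with more. It was 0.43 without cytarabine 1 (unadjusted p = 0.032 from limma), 0.17 without cytarabine 3, and 0.041 with the colon and heart covariates. The part of colon RNA in these levels was not tested.

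Cda encodes cytidine deaminase, which inactivates cytarabine itself, on chromosome 4 from 138338424 to 138367992. Transcript levels were 0.633, 4.64 and 5.21 FPKM after treatment and 1.16, 0.134 and 0.144 FPKM in the control mice. At the inferred depth these values correspond to about 5.32, 56.5 and 44.7 reads and about 10.6, 1.06 and 1.07 reads. In control 2 and control 3, Cda was below the 0.378 and 0.405 FPKM that 3 reads would give. The groups overlapped, since cytarabine 1 was below control 1. The log2 fold change, which depends on the pseudocount at such levels, was 1.45, with 0.52 on the side with less colon RNA and 1.45 on that with more. Cda passed the filter only through the cytarabine libraries, since its mean was 3.49 FPKM there and 0.480 FPKM in controls, so no test is drawn on for it. Its log2 fold change was 2.07 without cytarabine 1 and 0.49 with the covariates. The order of Cda over the 6 libraries was almost that of the colon markers, which summed to 5475, 5047, 2411, 381, 29.99 and 26.6 FPKM in cytarabine 3, cytarabine 2, control 1, cytarabine 1, control 2 and control 3. Whether this RNA came from leukemia cells was not tested. In all 6 libraries Dck was above Cda.

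Dctd encodes dCMP deaminase, which acts on the monophosphate, on chromosome 8 from 48099092 to 48153233. Its level was 8.91, 5.96 and 6.28 FPKM in the cytarabine libraries, in the order of their numbers, against 11.1, 9.48 and 10.9 FPKM in the controls. Every cytarabine library was below every control, with cytarabine 1 the closest to them. The mean was 7.05 ± 1.62 FPKM (SD, n = 3 mice) against 10.5 ± 0.872 FPKM, 32.7% lower. This was a log2 fold change of -0.53 (standard error 0.157, unadjusted p = 0.016, adjusted p = 0.203 from limma). It was -0.17 with less colon RNA and -0.76 with more. Without cytarabine 3, control 1 or control 3 the unadjusted p from limma was 0.051, 0.0507 and 0.0541, with log2 fold changes of -0.46, -0.49 and -0.50.

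**Figure D2:**
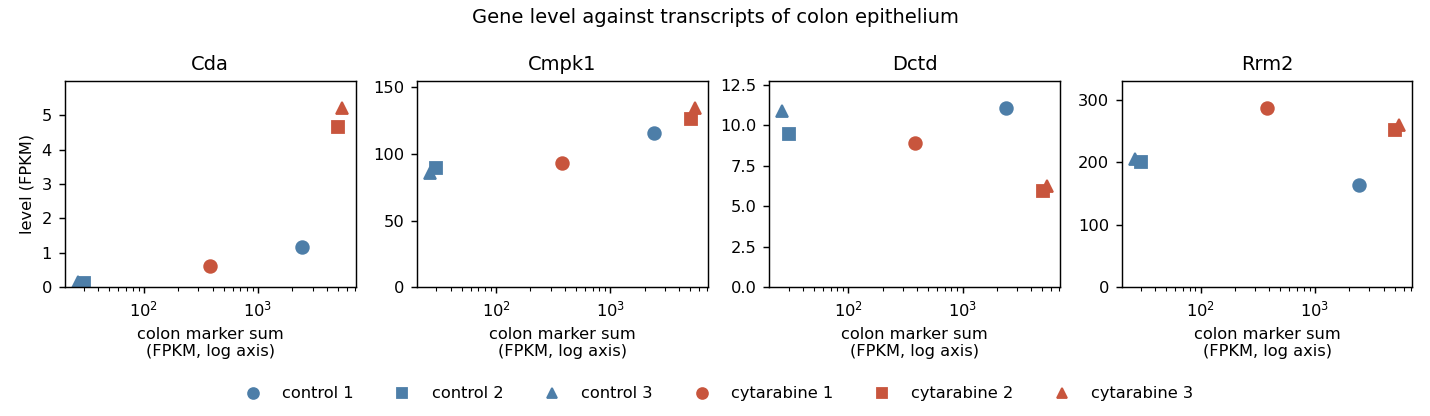
FPKM of Cda, Cmpk1, Dctd and Rrm2 (vertical axes from 0) against the summed FPKM of 15 colon epithelium markers (log axis) in each library, controls blue and cytarabine red. Cda and Cmpk1 are highest in the 3 libraries at 2411 to 5475 FPKM of colon markers, while Rrm2 is lowest in control 1, which is one of these 3.

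Nt5c2 encodes a cytosolic nucleotidase that can remove the first phosphate, on chromosome 19 from 46883317 to 47015153. Cytarabine libraries had 11.9, 10.9 and 11.8 FPKM, whereas controls had 10.8, 10.9 and 10.6 FPKM. The log2 fold change was 0.089 with a 95% interval from -0.079 to 0.26, so a change of the size of that of Rrm2 lay outside the interval. The difference was 0.13 with less colon RNA and 0.064 with more, and the log2 fold change was 0.031 with quantile normalization and 0.21 with the covariates. Annotated exons of Ina and of a lincRNA overlap those of Nt5c2. Samhd1 encodes the hydrolase that splits deoxynucleotide triphosphates, the cytarabine triphosphate among them, and lies on chromosome 2 from 157097533 to 157135265. The treated mice gave 49.2, 46.6 and 41.1 FPKM, the control mice 37.2, 38.0 and 39.8 FPKM. All cytarabine libraries were above all controls, with cytarabine 3 the nearest to them. The mean was 45.7 ± 4.13 FPKM (SD, n = 3 mice) against 38.3 ± 1.30 FPKM. On the log2 scale the change was 0.24 (standard error 0.082, unadjusted p = 0.026, adjusted p = 0.233 from limma), with 0.33 on the side with less colon RNA and 0.23 on that with more. In the fits that left out 1 library the unadjusted p from limma stayed under 0.05 in 2 of 6, those without cytarabine 3 or control 3.

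Since Dck and the enzymes that undo its work were both measured, their ratio was compared within libraries, which removes a common scale. The difference in log2(FPKM + 1) of Dck minus Nt5c2 was 1.66 ± 0.063 (SD, n = 3) with cytarabine and 1.42 ± 0.164 in controls. The difference between the groups was 0.24 (exact permutation p = 0.2, two-sided), and cytarabine 3, at 1.59, lay just under control 3, at 1.595. For Dck minus Samhd1 the values were -0.24 ± 0.092 (SD, n = 3) and -0.32 ± 0.099. The difference was 0.086 (exact permutation p = 0.4, two-sided), which was within the spread, and its sign differed between the sides, at -0.021 with less colon RNA and 0.21 with more. It was 0.033 without cytarabine 3, 0.036 without control 1 and 0.14 without control 3. The smallest p that 3 mice against 3 allow is 0.1, so none of the 3 ratios tested could pass 0.05.

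Rrm1 and Rrm2 encode the large and the small subunit of ribonucleotide reductase, and the small subunit is made in S phase. Rrm1 lies on chromosome 7 from 102441695 to 102469771. Values of 104, 91.7 and 88.5 FPKM were found after cytarabine, compared with 85.5, 97.6 and 94.1 FPKM without it. These values overlapped widely, and the log2 fold change was 0.033 with a 95% interval from -0.18 to 0.25. Its sign turned without cytarabine 1 or control 1, and it ranged from -0.034 to 0.079 with 1 library left out. The difference was 0.11 with less colon RNA and 0.074 with more.
Rrm2 lies on chromosome 12 from 24708241 to 24714146. Transcript levels were 287, 252 and 260 FPKM after treatment and 164, 201 and 206 FPKM in the control mice. The lowest cytarabine library was well above the highest control. The mean was 266 ± 18.6 FPKM (SD, n = 3 mice) against 190 ± 23.1 FPKM, 40.0% above the control level. This was a log2 fold change of 0.49 (standard error 0.108, unadjusted p = 0.0042, adjusted p = 0.155 from limma), and Rrm2 ranked 320 by p among the 11703 tested genes. It was 0.50 with less colon RNA and 0.64 with more, and between 0.38 and 0.55 with 1 library left out, while the adjusted p from limma ranged from 0.0855 to 0.993 over all alternatives. The log2 ratio of Rrm2 to Rrm1 was 1.46, 1.45 and 1.54 with cytarabine and 0.93, 1.03 and 1.12 in controls. Every cytarabine library was above every control, with a difference of 0.46 (exact permutation p = 0.1, two-sided, the smallest value possible here). Within the sides it was 0.38 with less colon RNA and 0.57 with more.

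**Figure D3:**
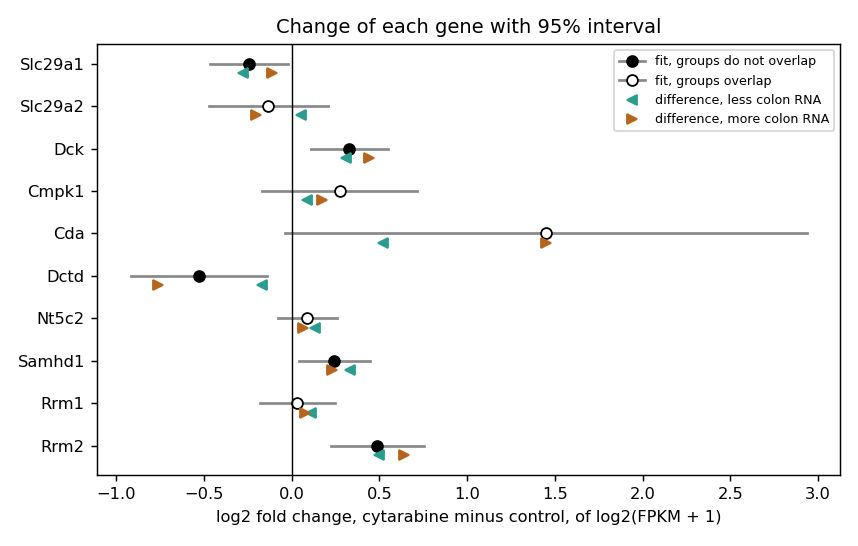
Log2 fold change of each gene (cytarabine minus control, on log2(FPKM + 1)) with its 95% interval from limma, filled where the groups do not overlap, and the differences within the libraries with less and with more colon RNA as triangles. Rrm2, Dck and Samhd1 lie above 0 and Slc29a1 and Dctd below it on both sides of the division. Since the groups of these genes do not overlap, the sign within each side was fixed in advance.

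Because Rrm2 is a gene of cycling cells, 17 cycling genes were set beside it. Of these, 2, against 17.4% of all tested genes, had an unadjusted p under 0.05 from limma, both higher, and the median log2 fold change was 0.10. The proliferation marker Mki67 was at 101, 87.1 and 94.2 FPKM after cytarabine, against 86.1, 108 and 108 FPKM. The topoisomerase Top2a was at 137, 102 and 112 FPKM against 118, 133 and 133 FPKM. The replication clamp Pcna was at 596, 517 and 508 FPKM against 461, 523 and 552 FPKM. The groups overlapped for all 3. Top2a had a log2 fold change of -0.14, which was -0.25 without cytarabine 1 (unadjusted p = 0.028 from limma) and -0.044 without cytarabine 2. For Mki67 it was -0.092, and -0.20 without control 1, while without cytarabine 2, control 2 or control 3 it was -0.038, -0.038 and -0.037. For Pcna it was 0.078, and 0.0053 without cytarabine 1, 0.0043 without control 1, 0.12 without cytarabine 3 and 0.13 without control 3. The 2 higher genes, named here after their values were seen, were Ccne1 and Ccne2, the cyclins E of entry into S phase. Ccne2 was at 11.2, 9.41 and 9.18 FPKM against 5.43, 5.35 and 6.37 FPKM, which is 0.70 in log2 fold change (adjusted p = 0.136 from limma). Ccne1 was at 53.1, 51.1 and 44.5 FPKM against 33.0, 39.5 and 40.6 FPKM, with a log2 fold change of 0.39 (adjusted p = 0.193 from limma). Of the 17 genes, 10 had a log2 fold change above 0 and 7 below it. The lowest was -0.30 for Ccna2 (unadjusted p = 0.054 from limma), whose groups overlapped. Cdk1 was at -0.16 and Ccnb1 at -0.15, likewise named after their values were seen.

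**Figure D4:**
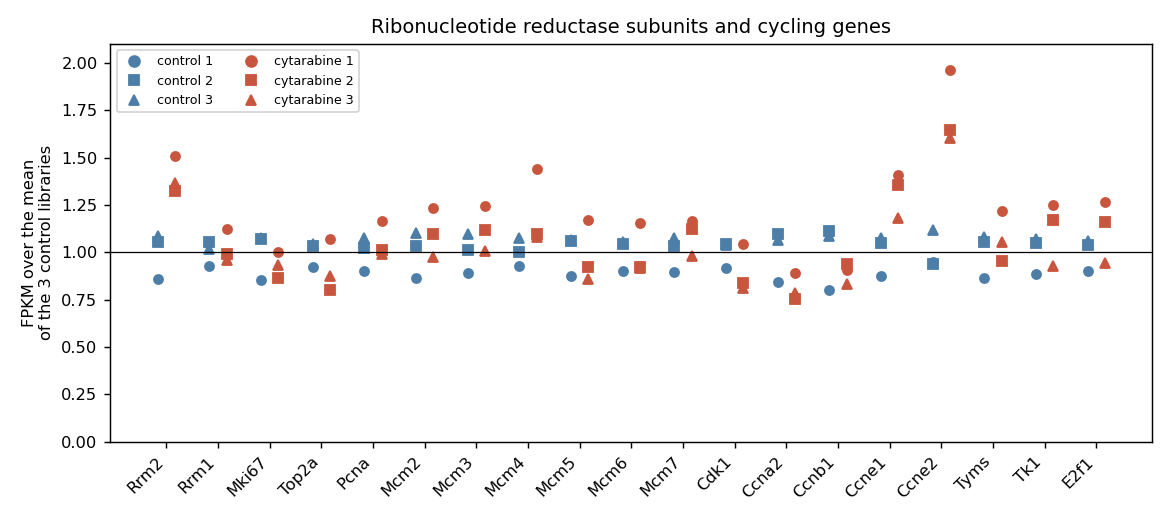
FPKM of Rrm2, Rrm1 and the 17 cycling genes in each library, divided by the mean of the 3 control libraries, controls blue and cytarabine red, with the line at 1 marking the control mean. Rrm2 averages 1.399 with cytarabine and Ccne2 1.74, while Rrm1 averages 1.02, Pcna 1.06 and Ccna2 0.809.

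A list of 50 other genes of nucleoside transport, kinases, deaminases, nucleotidases, deoxynucleotide supply and DNA synthesis was found whole in the files, 1 of them under an older symbol, and 43 passed the filter. Of these 43, 1 was higher and 2 were lower at an unadjusted p under 0.05 from limma, below the 17.4% of all tested genes in share, none passed after adjustment, and the median log2 fold change was -0.041. Groups did not overlap for 6 of the 43, 1 higher and 5 lower, against 23.8% of all tested genes.
Tdp1, a phosphodiesterase that cleans blocked DNA ends, was at 22.4, 17.4 and 16.4 FPKM after cytarabine, against 25.0, 27.6 and 28.6 FPKM. All cytarabine libraries were below all controls, by -0.52 in log2 fold change (adjusted p = 0.172 from limma). Uck2, a uridine and cytidine kinase, was at 87.3, 77.2 and 79.1 FPKM against 88.3, 100.6 and 102 FPKM, a log2 fold change of -0.25 (adjusted p = 0.23 from limma). Nt5e, the surface nucleotidase CD73, was at 4.40, 11.5 and 13.2 FPKM against 5.29, 1.48 and 1.10 FPKM. Its groups overlapped, since cytarabine 1 was below control 1, and the libraries with more colon RNA were the 3 highest (log2 fold change 1.63, adjusted p = 0.233 from limma). Uck2 and Nt5e each had an unadjusted p above 0.05 from limma without cytarabine 2, cytarabine 3, control 2 or control 3, with log2 fold changes of -0.23 to -0.21 and of 1.32 to 1.45. Cmpk2, a mitochondrial UMP/CMP kinase that interferon induces, was at 5.97, 4.80 and 3.52 FPKM against 2.88, 3.37 and 3.71 FPKM and did not pass (log2 fold change 0.40, adjusted p = 0.334 from limma). Its log2 fold change was 0.25 without cytarabine 1, 0.56 without cytarabine 3 (unadjusted p = 0.020 from limma) and 0.16 with quantile normalization. Dctpp1, which splits dCTP and related nucleotides, was at 182, 191 and 155 FPKM against 197, 204 and 239 FPKM, with a log2 fold change of -0.28 (adjusted p = 0.288 from limma). With the colon and heart covariates it was -0.55 for Dctpp1 (unadjusted p = 0.0052 from limma) and 0.77 for Nt5e (unadjusted p = 0.046 from limma). For Tdp1, Uck2 and Cmpk2 it was -0.40, -0.087 and 0.30 there, each with an unadjusted p above 0.05 from limma. The groups of Dctpp1 did not overlap, whereas those of Abcc5, an exporter of nucleotide analogs, did. Abcc5 was at 16.6, 11.4 and 10.03 FPKM against 16.8, 16.2 and 18.5 FPKM, with a log2 fold change of -0.44 (adjusted p = 0.294 from limma). With the covariates it was -0.46. Without cytarabine 1, Abcc5 was at -0.64 (unadjusted p = 0.0013 from limma), and Dctpp1 was at -0.34 without cytarabine 2 and -0.33 without control 1 (unadjusted p = 0.043 and 0.049 from limma).
Among the genes under the filter were the concentrative transporters Slc28a1 and Slc28a3, which were at most 0.66 FPKM in any library. The third of this family, Slc28a2, was at 22.6, 15.7 and 19.6 FPKM against 16.7, 16.8 and 17.6 FPKM, and its groups overlapped.

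**Figure D5:**
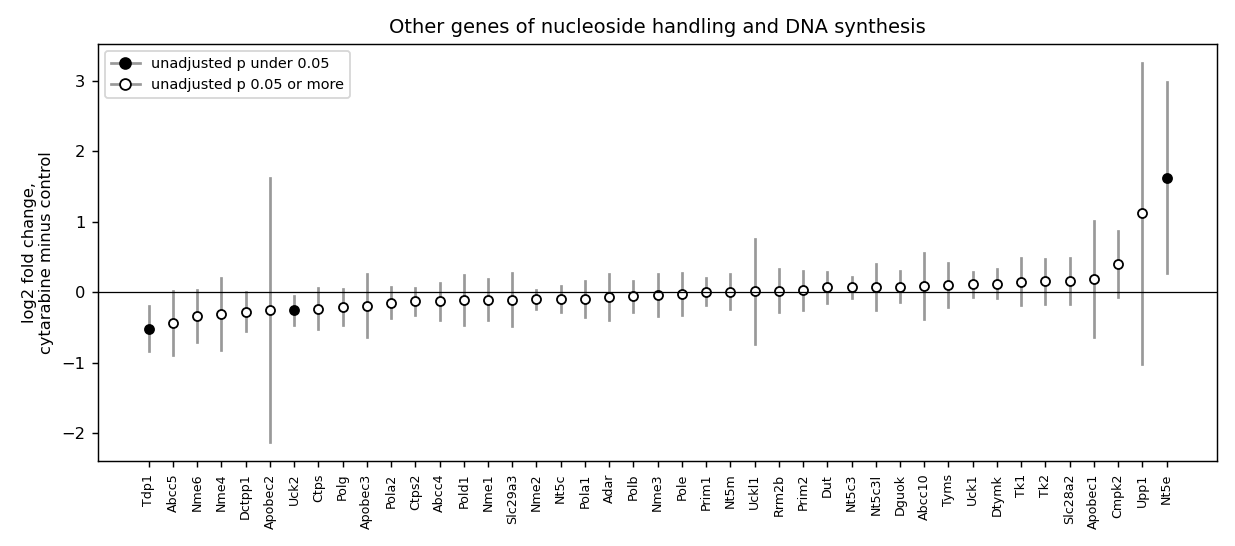
Log2 fold change (cytarabine minus control) of the 43 tested genes of nucleoside handling and DNA synthesis, ordered by size, with 95% intervals from limma; filled points have an unadjusted p under 0.05. Tdp1 and Uck2 lie below 0 and Nt5e above it, and the other 40 have open points.

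For each member the tested gene with the most similar pattern was sought by the Pearson correlation of log2(FPKM + 1) over the 6 libraries, which is a description in which all points share the same libraries. For Rrm2 it was Clspn, the checkpoint adaptor claspin of replicating cells (correlation 0.997), at 46.0, 42.5 and 42.3 FPKM after cytarabine, against 31.4, 36.6 and 37.1 FPKM. For Dck it was the formin Inf2 (0.997), and for Samhd1 the lymphocyte GTPase Gimap4 (0.998). Gimap4 was at 357, 332 and 269 FPKM after cytarabine, against 230, 232 and 249 FPKM. For Cmpk1 it was Eps8 (0.999), at 0.689, 8.59 and 12.6 FPKM against 5.08, 0.594 and 0.124 FPKM, and for Cda it was Prkcz (0.999). Eps8 was highest in the 3 libraries with more colon RNA. For the remaining members they were Gm2518 for Slc29a1 (0.992), Zwilch for Slc29a2 (0.996), Kctd7 for Dctd (0.997), Vmn2r96 for Nt5c2 (0.977) and Gramd1b for Rrm1 (0.993). Correlations above 0.95 were reached by 985 tested genes for Cmpk1, by 92 for Rrm2 and by 13 for Nt5c2.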

How the data were processed

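RNA-Seq was made by the authors from GFP and CD49b positive cells of 6 mice, with a stranded mRNA kit and 75-base single reads. Per the processing notes of the submitters, reads were mapped to mm10 with TopHat2 2.0.13, Bowtie2 2.2.3 and SAMtools 0.1.19. The deposited values are FPKM per gene from Cufflinks 2.2.1. Its annotation and options are not given in the sources used here, nor are counts, so no count test was run.

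Groups and library numbers came from the sample labels. Genes averaging 1 FPKM or more entered the test as log2(FPKM + 1), with limma 3.58.1 run under R 4.3.3 (linear fit, eBayes with trend, two-sided, Benjamini-Hochberg), a step also tested on simulated data. Ratios were tested with exact permutation tests. The members, lists and side division were chosen with earlier results of these data known. Named genes were all members, pathway genes at an unadjusted p under 0.05 without overlap, besides these the 2 higher and 2 lower pathway genes of smallest p, 3 cycling genes, the most abundant marker genes, and the gene most similar to each member. Reads per library were inferred from low FPKM values of 1-transcript genes in GENCODE M21, assuming fragments of 200 bases, and cover counting error only. Alternatives were other pseudocounts, filters, scalings and eBayes settings, the replicate block, covariates, and leaving out each library. The fits within each side of the colon division were added after the data were seen. Marker genes not found were not analysed here. Figures were drawn with matplotlib 3.10.9.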

Additional observations from a re-analysis of the deposited data

How the results depend on the processing

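The direction of Dck, Samhd1, Rrm2 and Dctd was the same under every alternative run, and that of Slc29a1 under all but the covariates (log2 fold change 0.0076). The groups of these genes did not overlap, so neither leaving out libraries nor another pseudocount could turn the direction. The filters, the eBayes settings and the block leave a log2 fold change as it is. Only the scalings and the covariates could therefore have turned it. With each replicate left out in turn, all tested genes at an unadjusted p under 0.05 numbered from 1179 to 4075 (2038 with all libraries), those at an adjusted p under 0.05 from 0 to 5 (0), members from 3 to 5 (5), and pathway genes from 1 to 8 (3). The log2 fold change of Rrm1 ranged from -0.034 to 0.079 in these fits, and that of Gramd1b from -0.073 to 0.107. The member counts without cytarabine 1 or control 1 include Cda, for which no test is drawn on. The adjusted p was under 0.05 for 1 gene when the pseudocount was 0.1, for 2 when eBayes used no trend and for 1 when the trend was robust. Pathway genes at an unadjusted p under 0.05 numbered 6 with median-of-ratios factors, 5 with quantile normalization, where Gramd1b was at -0.035, and 5 with the robust trend. All tested genes under it numbered 2336, 1941 and 2064 in these fits. With colon and heart scores as covariates 565 genes and 1 member passed an unadjusted p under 0.05, and the log2 fold changes of Mki67, Top2a and Gm2518 were 0.209, 0.164 and 0.032. When replicate numbers entered as a block, 994 genes, 3 members (Dck, Dctd and Rrm2) and 1 pathway gene passed it. Deviations of same-numbered libraries correlated at -0.709, -0.247 and -0.594. The colon division puts same-numbered libraries on opposite sides, so these correlations cannot show whether the numbers pair the libraries. The sample labels state no pairing either. The fits on one side of the colon division, chosen after seeing the data, set 1 library against 2, have no spread for the lone library, which is assumed to vary like the others, and are no check of a call. With less colon RNA, 1241 genes, 3 members and 7 pathway genes passed, and the log2 fold changes of Slc29a2, Top2a and Zwilch were 0.055, 0.045 and 0.093. In those with more, 12 genes had an adjusted p under 0.05, 7 pathway genes passed an unadjusted p under 0.05, and Mki67 was at 0.074. The ratios of Dck to Nt5c2, Dck to Samhd1 and Rrm2 to Rrm1 kept their direction under another pseudocount, quantile normalization and each library left out. The block leaves the difference between the groups as it is, so it could not turn any of them. For Rrm2 to Rrm1, whose groups did not overlap, leaving out a library could not turn it. The cause of these changes was not tested. The scalings moved the median log2 fold change of all genes by less than 0.1. With 3 mice against 3, the size of a difference that can be seen depends on the spread of the gene. Samhd1, at a log2 fold change of 0.24, had an unadjusted p of 0.026 from limma. Cmpk1, at 0.27 with a larger standard error, had an unadjusted p of 0.178 from limma.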
